A study of Mus musculus with 12 samples.

Results

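Adventitial fibroblasts, the matrix-producing cells of the outer coat of an artery, were followed in these mouse aorta libraries through a small set of marker genes. The set was fixed by symbol: Serpinf1, with whichever of Pdgfra, Dcn, Dpt, Pi16, Scara5, Clec3b, Gsn, Mfap5 and Cd34 the gene table lists. Of these 10 genes, 7 matched (Serpinf1, Dcn, Dpt, Pi16, Scara5, Clec3b and Mfap5), out of 3534 listed genes. Pdgfra, Gsn and Cd34 were not analysed here. All 7 passed the filter on low values (at least 1 FPKM in at least 3 libraries), as did 1659 genes in all. FPKM counts fragments scaled by transcript length and by library depth, so levels can be compared between genes.

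The HSAPN, HAPN and HFD groups came from mice on a high-fat diet (60% of kcal from fat, 12 weeks). The WT group came from mice on a normal diet, also for 12 weeks. The labels give an APPL1 knockdown genotype for HSAPN and a wild-type genotype for HAPN, HFD and WT. They state neither how the knockdown was made, nor what sets HAPN apart from HFD, nor the strain, sex or age of the animals. The 2 files deposited as HFD replicates 1 and 2 held identical values and were counted as 1 library, called the shared HFD library here, which left 11 distinct libraries of whole aorta: 3 HSAPN, 3 HAPN, 2 HFD and 3 WT. Whether the replicates of a group were different mice is not stated, and p-values here speak only of sample-to-sample spread, part of which may be technical.

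The adventitia is home to fibroblasts and progenitor-like stromal cells that secrete collagen, proteoglycans and microfibril proteins and surround the muscular media. Serpinf1 encodes pigment epithelium-derived factor (PEDF), a secreted serpin that does not inhibit proteases and is known as an anti-angiogenic protein that acts on lipolysis. Dcn encodes decorin, a small leucine-rich proteoglycan that binds collagen fibrils. Dpt encodes dermatopontin, a collagen-associated matrix protein. Mfap5 encodes a microfibril-associated glycoprotein that accompanies elastic fibres. Pi16 encodes a secreted or membrane-anchored peptidase inhibitor family protein that marks progenitor-like fibroblasts in many mouse tissues. Clec3b encodes tetranectin, a plasminogen-binding C-type lectin. Scara5 encodes a scavenger receptor that binds ferritin.

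In the files' build, GRCm38, with GENCODE M21 gene models, Serpinf1 lies at chr11:75409769-75422701 on the minus strand. The others lie on the plus strand: Dcn at chr10:97479609-97518143, Dpt at chr1:164796644-164824266, Pi16 at chr17:29317680-29330593, Scara5 at chr14:65666403-65764826, Clec3b at chr9:123150946-123157432 and Mfap5 at chr6:122505845-122529290. All are protein coding, and no 2 of them share a chromosome. Dpt and Pi16 each overlap 1 annotated antisense gene that the table does not list; whether the counting used strand is not stated, so reads of each pair may not have been told apart.

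Promoter windows from RefSeq (GRCm38.p6), 250 bases before to 50 after the RefSeq gene start, were matched for Serpinf1, Pi16 and Dpt, 3 of the 7 genes. That start differs from the GENCODE start in each. Only these are shown because no window was matched for Dcn, Clec3b, Scara5 and Mfap5. The group means of Serpinf1 and Pi16 were lower in HSAPN, HAPN and HFD than in WT, which those of Dpt were not. Those of Dcn, Clec3b, Scara5 and Mfap5 were also lower, so the windows do not compare lower markers with the rest. The windows are chr11:75422574-75422873 (minus strand) for Serpinf1, chr17:29318632-29318931 for Pi16 and chr1:164796413-164796712 for Dpt, each written 5′ to 3′ along the gene. Capitals mark matches to the CCAAT box (CCAAT), the E box (CANNTG) and the TATA box (TATAAA), searched on both strands.
Serpinf1: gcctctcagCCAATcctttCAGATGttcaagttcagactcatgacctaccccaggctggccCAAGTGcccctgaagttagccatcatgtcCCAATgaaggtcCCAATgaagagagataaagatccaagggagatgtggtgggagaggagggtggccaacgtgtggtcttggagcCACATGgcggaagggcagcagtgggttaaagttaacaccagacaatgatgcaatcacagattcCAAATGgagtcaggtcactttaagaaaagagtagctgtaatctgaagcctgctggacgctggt
Pi16: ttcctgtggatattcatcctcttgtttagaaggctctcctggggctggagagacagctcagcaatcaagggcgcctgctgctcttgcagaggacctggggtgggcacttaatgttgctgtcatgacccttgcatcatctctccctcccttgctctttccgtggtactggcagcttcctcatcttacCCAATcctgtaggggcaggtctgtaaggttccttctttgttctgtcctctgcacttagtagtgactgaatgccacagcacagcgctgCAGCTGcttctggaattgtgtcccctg
Dpt: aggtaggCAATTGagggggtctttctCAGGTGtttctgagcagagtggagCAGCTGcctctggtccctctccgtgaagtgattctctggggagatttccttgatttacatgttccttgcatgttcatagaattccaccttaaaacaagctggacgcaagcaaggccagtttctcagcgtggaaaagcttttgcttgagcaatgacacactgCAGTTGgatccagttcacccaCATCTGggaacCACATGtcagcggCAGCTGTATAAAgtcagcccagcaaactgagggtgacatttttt
The Serpinf1 window holds 3 CCAAT matches, starting 241, 160 and 148 bases before the gene start, and 4 E box matches. Pi16 has 1 CCAAT match, 64 bases before its start, and 1 E box match. The Dpt window has no CCAAT match, but 7 E box matches and 1 TATAAA, which starts 13 bases after the gene start, directly after an E box. Over 32544 promoter windows of the same length, 37.4% held CCAAT, 72.3% CANNTG and 13.6% TATAAA. An AP-1 element (TGANTCA, 7.79% of windows), a GC box (GGGCGG, 35.9%) and a cyclic AMP response element core (TGACG, 20.9%) were also searched and had no match in these 3 windows. A match describes letters, not a bound site.

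Depth was even. The step between low values puts the libraries at 15635000 to 17865000 reads. Serpinf1 rested on about 295 to 1291 reads per library and Dcn on about 2185 to 7062, so the counting error of a single value was at most 5.82% for Serpinf1 and 2.14% for Dcn. Scara5 was the thinnest, with about 84 to 426 reads and a counting error of up to 10.9%. The spread between replicates exceeded the largest counting error of the gene for every marker and group apart from Dcn in WT, and the coefficient of variation of Serpinf1 within WT was 38.1%.

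The top and bottom of the order of levels held in nearly every library. Clec3b was the most abundant, at a median of 88.4 FPKM over the 11 libraries, followed by Dpt at 71.6 FPKM and Dcn at 35.7 FPKM. Serpinf1 (13.1 FPKM), Mfap5 (9.75 FPKM) and Pi16 (9.41 FPKM) formed a middle group whose ranges overlapped, and Scara5 was lowest at 2.30 FPKM. HAPN replicate 2 departed from this at the top, with Dpt (64.5 FPKM) just above Clec3b (64.3 FPKM). Dcn was above Dpt in WT replicates 1 and 2 (61.9 against 53.8 FPKM and 62.1 against 59.6 FPKM) and below it in every other library. From lowest to highest library, Scara5 spanned 4.79-fold, Serpinf1 4.16-fold and Pi16 3.90-fold, while Dpt spanned 1.75-fold.

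Serpinf1 was 10.5, 7.66 and 7.53 FPKM in the HSAPN libraries, 13.1, 7.57 and 9.89 FPKM in the HAPN libraries, 16.5 and 13.5 FPKM in the HFD libraries, and 31.4, 30.6 and 14.2 FPKM in the WT libraries. WT replicates 1 and 2 were above every high-fat library, and WT replicate 3 lay below 1 HFD library. HSAPN and HAPN libraries were each below all WT libraries, with overlap between HFD and WT. Group means were 8.57 ± 1.69 FPKM in HSAPN (SD, n = 3), 10.2 ± 2.76 FPKM in HAPN (n = 3), 15.0 ± 2.11 FPKM in HFD (n = 2) and 25.4 ± 9.68 FPKM in WT (n = 3). On the log2(FPKM + 1) scale the difference from WT was -1.40 (SE 0.313) in HSAPN, -1.19 (SE 0.313) in HAPN and -0.65 (SE 0.350) in HFD. None passed: adjusted p in limma, with Benjamini-Hochberg adjustment over the 1659 genes as for every p below, was 0.168, 0.126 and 0.504. The order among the high-fat groups was not resolved either. HSAPN and HAPN (-0.21, adjusted p = 0.999) and HAPN and HFD (-0.54, adjusted p = 0.575) did not differ past the threshold in limma. The same held for HSAPN and HFD (-0.75, limma adjusted p = 0.886).

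**Figure D1:**
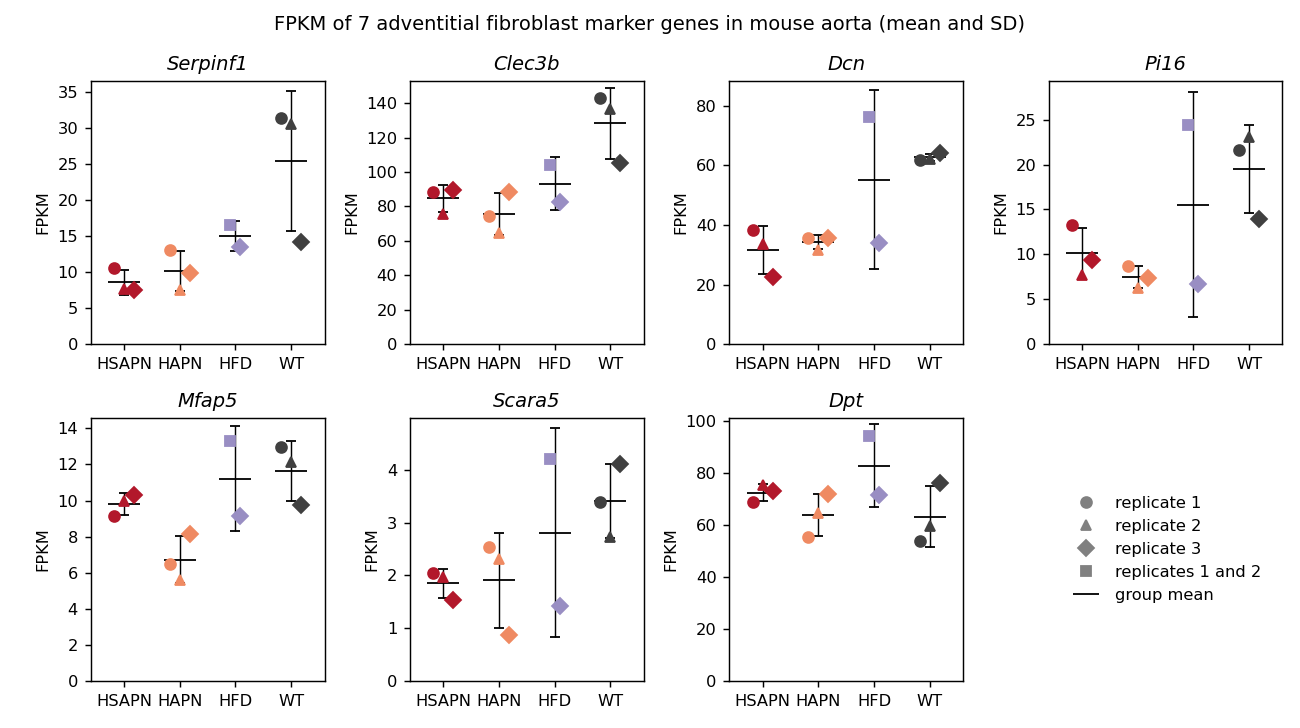
FPKM (y axis, from 0) of each of the 7 marker genes by group (x axis); points are libraries, the bar is the group mean and whiskers are 1 SD, and the square is the shared HFD library. Serpinf1 in WT replicates 1 and 2 sits at 31.4 and 30.6 FPKM with every high-fat library at or below 16.5 FPKM, while the Dpt groups overlap.

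Clec3b, the most abundant marker, was 88.4, 75.7 and 89.8 FPKM in HSAPN, 74.6, 64.3 and 88.4 FPKM in HAPN, 104.2 and 82.3 FPKM in HFD, and 143, 136 and 104.9 FPKM in WT. All 8 high-fat libraries were below all 3 WT libraries, the closest pair being the shared HFD library and WT replicate 3. That pair lay at 104.192 and 104.949 FPKM, with counting errors of 2.47% and 2.38%, so the separation is not resolved at this depth. Its log2 difference from WT was -0.58 (SE 0.194) in HSAPN, -0.75 (SE 0.194) in HAPN and -0.45 (SE 0.217) in HFD, with limma adjusted p of 0.168, 0.120 and 0.466.

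Among the matrix genes, decorin had little spread within WT before median-ratio scaling. Dcn was 38.4, 33.8 and 22.5 FPKM in HSAPN, 35.7, 31.5 and 35.5 FPKM in HAPN, 76.4 and 34.0 FPKM in HFD, and 61.9, 62.1 and 64.1 FPKM in WT. Every HSAPN and HAPN library was below every WT library, and so was HFD replicate 3, whereas the shared HFD library was above all of WT. This order is that of values before median-ratio scaling. The log2 difference was -1.001 (SE 0.290) for HSAPN and -0.86 (SE 0.290) for HAPN against WT (limma adjusted p = 0.168 and 0.159).

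Dermatopontin did not follow. Dpt was 68.9, 75.5 and 73.1 FPKM in HSAPN, 55.5, 64.5 and 71.8 FPKM in HAPN, 94.2 and 71.6 FPKM in HFD, and 53.8, 59.6 and 76.4 FPKM in WT, with overlap in every comparison with WT. Its log2 difference from WT was 0.21 (95% interval -0.21 to 0.63) in HSAPN, 0.02 (-0.40 to 0.45) in HAPN and 0.39 (-0.09 to 0.86) in HFD.

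Mfap5, the microfibril gene, stood lowest in HAPN. It was 9.15, 9.97 and 10.3 FPKM in HSAPN, 6.48, 5.57 and 8.14 FPKM in HAPN, 13.3 and 9.15 FPKM in HFD, and 12.9, 12.2 and 9.75 FPKM in WT. HAPN libraries were below all libraries of the other groups. The log2 difference of HAPN was -0.71 (SE 0.197) against WT and -0.65 (SE 0.220) against HFD, and that of HSAPN against HAPN was 0.50 (SE 0.197). Limma adjusted p was 0.128, 0.505 and 0.581.

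Pi16, the progenitor-like fibroblast marker, was 13.3, 7.72 and 9.41 FPKM in HSAPN, 8.70, 6.25 and 7.34 FPKM in HAPN, 24.4 and 6.67 FPKM in HFD, and 21.6, 23.1 and 13.96 FPKM in WT. HFD replicate 3 was among the low libraries and the shared HFD library was the highest of all 11 before median-ratio scaling. Against WT its log2 difference was -0.88 (SE 0.406) in HSAPN and -1.26 (SE 0.406) in HAPN (limma adjusted p = 0.246 and 0.154). Scara5, the least abundant, was 2.04, 1.97 and 1.53 FPKM in HSAPN, 2.53, 2.30 and 0.879 FPKM in HAPN, 4.21 and 1.41 FPKM in HFD, and 3.39, 2.73 and 4.11 FPKM in WT. HSAPN and HAPN did not overlap with WT, and the log2 differences were -0.62 (SE 0.327) and -0.64 (SE 0.327; limma adjusted p = 0.280 and 0.259). The closest pair for HAPN lay at 2.53 FPKM (HAPN replicate 1) and 2.73 FPKM (WT replicate 2). Their counting errors were 6.33% and 5.81%, so the separation of HAPN from WT is not resolved at this depth.

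No marker passed the threshold in any of the 7 comparisons. In HAPN against WT, 6 of 7 stood lower with no overlap between groups, against 20.4% of tested genes, 6 of 7 had a log2 difference below 0, against 62.0%, and 5 were lower at an unadjusted p under 0.05, against 14.4%. The exception was Dpt, and the Scara5 separation lay within counting error. The median log2 difference of the markers was -0.75, against -0.17 over all tested genes. In HSAPN against WT, 5 of 7 stood lower without overlap, against 19.0% of tested genes, 6 of 7 were below 0, against 57.7%, and 3 were lower at an unadjusted p under 0.05 (Serpinf1, Dcn and Clec3b), against 14.1%. The median was -0.62, against -0.12 over all tested genes. In HFD against WT, 1 of 7 (Clec3b) stood lower without overlap, against 7.17% of tested genes, 6 of 7 were below 0, against 42.4%, and none had an unadjusted p under 0.05, against 11.4%. That Clec3b separation lay within counting error. Dcn (-0.29), Pi16 (-0.53), Scara5 (-0.30) and Mfap5 (-0.06) turned positive there without HFD replicate 3, and stood at -0.87, -1.39, -0.86 and -0.31 without the shared HFD library. The median was -0.30, against 0.07 over all tested genes. Counts past the limma threshold were 0 of 7 in each of these, as were those of 1659 genes (0%), and limma-voom on reads recovered from the values also called 0 markers in every comparison. These comparisons share the WT libraries, so their values are not independent of each other. The markers were chosen with earlier results of these data known, and several vary together (r up to 0.88 between Serpinf1 and Clec3b). Their counts here and below are therefore descriptions, not a test of the set against the other genes. Overlap was judged on values before median-ratio scaling (below).

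With the 8 high-fat libraries set against WT (HFD, HAPN and HSAPN weighted equally as groups), 6 of 7 markers had a log2 difference below 0, against 55.4% of tested genes, and 4 were lower at an unadjusted p under 0.05 (Serpinf1, Clec3b, Dcn and Pi16), against 13.1%. Clec3b alone did not overlap, against 2.29% of tested genes, and its closest pair of libraries lay within counting error. The limma count was 0 of 7, against 0.0603% of tested genes. Serpinf1 averaged 10.8 ± 3.30 FPKM in high-fat libraries (n = 8) and 25.4 ± 9.68 FPKM in WT (n = 3), a 2.36-fold lower mean (log2 -1.08, SE 0.261, limma adjusted p = 0.128). It ranked 48 of 1659 from the lowest log2 difference. Over the same contrast Dcn was at -0.72, Clec3b at -0.60, Pi16 at -0.89, Mfap5 at -0.33, Scara5 at -0.52 and Dpt at 0.21.

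WT replicate 3 decided the calls of Serpinf1, Clec3b and Mfap5 in some comparisons. Dcn, Pi16, Scara5 and Dpt missed the threshold without WT replicate 3 too. Without it, Serpinf1 passed in HSAPN against WT (log2 -1.75, limma adjusted p = 0.0112), in HAPN against WT (-1.55, 0.0155) and in the high-fat libraries against WT (-1.44, 0.00892). The same omission brought Clec3b (adjusted p = 0.0329) and Mfap5 (0.0439) past the threshold in HAPN against WT, and Clec3b in the high-fat libraries against WT (0.0304). It also raised the share of all tested genes past the threshold to 10.1% in HSAPN against WT, 10.9% in HAPN against WT and 14.8% in the high-fat libraries against WT, and to 1.67% in HFD against WT, where 0 of 7 markers passed. The summed FPKM of 9 erythrocyte genes was 1328 to 4918 in the high-fat libraries, 3238 in WT replicate 3, and 425 and 429 in WT replicates 1 and 2. Its part in the result was not tested.

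**Figure D2:**
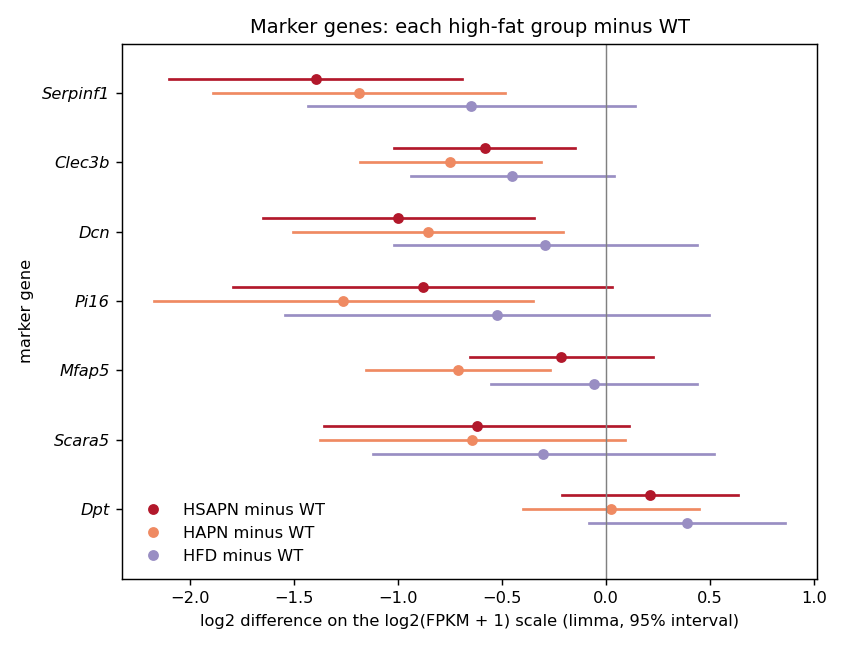
Log2 difference of each marker gene from WT on the log2(FPKM + 1) scale (x axis) for HSAPN, HAPN and HFD, with limma 95% intervals as lines. Serpinf1 lies at -1.40, -1.19 and -0.65 and Dpt at 0.21, 0.02 and 0.39.

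The high-fat groups were also set against each other. HAPN against HFD had 7 of 7 markers below 0, but so had 75.1% of tested genes. Serpinf1 and Mfap5 did not overlap (2 of 7, against 19.8% of tested genes), 1 marker (Mfap5) had an unadjusted p under 0.05, against 8.62%, and the limma count was 0 of 7, against 0.181%. The closest Serpinf1 pair lay at 13.07 FPKM (HAPN replicate 1) and 13.48 FPKM (HFD replicate 3). Their counting errors were 4.48% and 4.35%, so that separation is not resolved at this depth. HSAPN against HFD likewise had 7 of 7 below 0, against 72.9% of tested genes; with median-ratio scaling Dpt, Clec3b and Mfap5 turned positive. Serpinf1 was the 1 marker without overlap there, against 14.2% of tested genes, and no marker had an unadjusted p under 0.05, against 4.04%. The limma count was 0 of 7, and 0% of tested genes. Leaving out the shared HFD library turned Dcn, Pi16 and Scara5 positive in HAPN against HFD and Dpt, Pi16, Scara5, Clec3b and Mfap5 positive in HSAPN against HFD. For APPL1 knockdown, HSAPN against HAPN, 5 of 7 markers were above 0 (Scara5 was below it with median-ratio scaling) and 2 of 7, Serpinf1 (-0.21) and Dcn (-0.14), below it, against 46.5% of tested genes below 0. The single marker without overlap was Mfap5, higher in HSAPN, against 9.95% of tested genes. It was also the single one with an unadjusted p under 0.05, against 7.84%, and the limma count was 0 of 7, against 0.121%.

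Median-ratio scaling of the libraries moved the median of all tested genes by 0.17 in HAPN against WT, by 0.14 in HSAPN against WT, by 0.23 in HAPN against HFD and by 0.19 in HSAPN against HFD. After scaling, the markers' median was -0.53 in HAPN against WT, with 6 of 7 below 0 against 49.6% of tested genes, and -0.50 in HSAPN against WT, with 6 of 7 below 0 against 48.5%. It was -0.28 in HAPN against HFD, with 7 of 7 below 0 against 51.8% of tested genes, and -0.13 in HSAPN against HFD, with 4 of 7 below 0 against 48.8%. The factors were 0.886, 1.20 and 1.17 in WT replicates 1, 2 and 3, 0.894 to 0.970 in HAPN and 0.932 to 0.988 in HSAPN. Division by them lowers WT replicates 2 and 3 and raises every HAPN and HSAPN library, so separations from WT can be lost. Overlap was not counted after scaling.

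A ratio within a library does not depend on its scaling. Serpinf1 over Dpt was 0.119 ± 0.0291 in HSAPN (n = 3), 0.163 ± 0.0632 in HAPN (n = 3), 0.182 ± 0.00963 in HFD (n = 2) and 0.427 ± 0.212 in WT (n = 3). WT replicate 3, at 0.186, lay within the range of the high-fat libraries (0.101 to 0.235). Dcn over Dpt ran from 0.308 to 0.811 in the 8 high-fat libraries and from 0.840 to 1.15 in WT, with no overlap. Clec3b over Dpt likewise ran from 0.996 to 1.34 in the high-fat libraries and from 1.37 to 2.66 in WT. Scara5 over Dpt (0.0122 to 0.0456 in the high-fat libraries, 0.0458 to 0.0631 in WT) did not overlap either. The gap between the closest pair of libraries was 3.58% for Dcn, 2.29% for Clec3b and 0.424% for Scara5, and its counting error (1 SD) was 3.37%, 4.99% and 9.26%, so none of the 3 separations is resolved at this depth. Pi16 and Mfap5 over Dpt overlapped. Of the 1658 tested genes besides Dpt, markers included, 2.90% had a ratio to Dpt lower in all 8 high-fat libraries than in all 3 WT libraries. Dpt was taken as the denominator after the values were seen, and these ratios are given without a test. In bulk tissue, fewer fibroblasts and less RNA per fibroblast cannot be told apart.

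**Figure D3:**
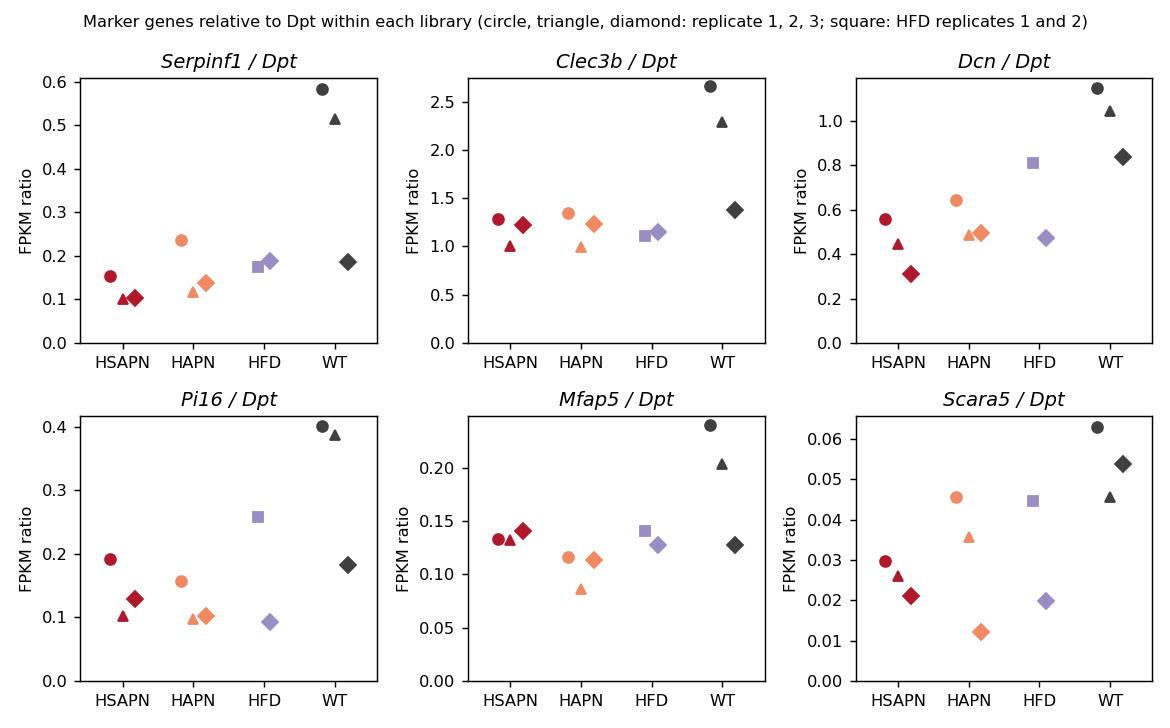
FPKM of each of 6 marker genes divided by that of Dpt in the same library (y axis, from 0) by group (x axis); each point is 1 library. Dcn and Clec3b over Dpt are lower in all 8 high-fat libraries (up to 0.811 and 1.34) than in the 3 WT libraries (from 0.840 and 1.37), with gaps of 3.58% and 2.29%.

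Across the 11 libraries, Serpinf1 varied most like Clec3b among the markers (Pearson r = 0.88, Spearman rho = 0.69, of log2(FPKM + 1)), then like Pi16 (r = 0.80, rho = 0.70) and Dcn (r = 0.78, rho = 0.85). With WT replicates 1 and 2 left out, where Serpinf1 lies farthest from its median, r over 9 libraries was 0.60 for Clec3b, 0.62 for Pi16 and 0.79 for Dcn. Mfap5 had r of 0.61 with Serpinf1 over 11 libraries and 0.36 over those 9, and Scara5 0.54 and 0.55. Dpt had r from -0.39 (Serpinf1) to 0.26 (Mfap5) with the others over 11 libraries, and its r with Serpinf1 was 0.29 over the 9. The libraries share groups and diets, so these values describe the set and carry no p. The tested genes with the highest r to Serpinf1 were Hmgn3 (r = 0.95, rho = 0.86), Arhgef19 (r = 0.95, rho = 0.79), Grhpr (r = 0.94, rho = 0.88), Fam19a5 (r = 0.93, rho = 0.90), Nudt19 (r = 0.93, rho = 0.92) and Aqp2 (r = 0.92, rho = 0.78), with Clec3b at rank 36 of 1658. Without WT replicates 1 and 2 their r was 0.83 for Hmgn3, 0.81 for Arhgef19, 0.80 for Grhpr, 0.78 for Fam19a5, 0.77 for Nudt19 and 0.73 for Aqp2, so that Dcn (0.79) lay above the last 3 and the order rests in part on those 2 libraries. Hmgn3, a nucleosome-binding protein gene, was 6.91 ± 1.23 FPKM in high-fat libraries (n = 8) and 14.4 ± 6.0 FPKM in WT (n = 3; log2 -0.87, limma adjusted p = 0.133).

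**Figure D4:**
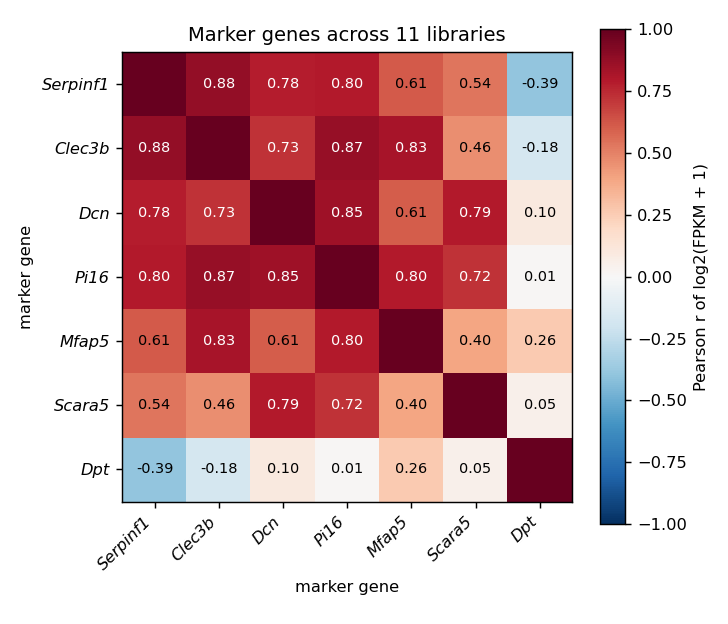
Pearson r of log2(FPKM + 1) between each pair of marker genes over the 11 distinct libraries (both axes list the genes; colour and number give r). Serpinf1, Clec3b, Dcn and Pi16 have r of 0.73 to 0.88 with each other, and Dpt has r of -0.39 to 0.26 with the rest.

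Other genes were read from fixed lists, with no gene of any list past the threshold in any comparison. Of 7 PEDF receptors and partners, 2 were in the table. Pnpla2, the adipose triglyceride lipase that binds PEDF, was 35.7 ± 15.7 FPKM in high-fat libraries (n = 8) and 35.2 ± 12.9 FPKM in WT (n = 3; log2 0.04, limma adjusted p = 0.930), and Atp5b, an ATP synthase subunit, had a log2 difference of -0.28. Of 18 other serpins, 1 passed the filter: Serpina3n, an acute-phase protease inhibitor, was 45.1 ± 11.9 FPKM in high-fat libraries and 19.3 ± 7.78 FPKM in WT (log2 1.18, limma adjusted p = 0.128), opposite in sign to Serpinf1. Of 45 general fibroblast and matrix genes, 15 were in the table and all 15 were tested. In the high-fat libraries against WT, 9 of 15 were below 0, against 55.4% of tested genes (median -0.44, against -0.06), and 4 of 15 were lower at an unadjusted p under 0.05, against 13.1%. Their most abundant members differed in sign: Vim, the mesenchymal filament gene, was at log2 0.49, Bgn, encoding biglycan, at 0.16, Cygb, encoding cytoglobin, at -0.63, and Fbln1, encoding the matrix protein fibulin 1, at -0.46. Against WT, HAPN had 11 of 15 below 0, against 62.0% of tested genes (median -0.60, against -0.17). At an unadjusted limma p under 0.05, 6 of 15 were lower there, against 14.4%. HFD against WT had 9 of 15 below 0, against 42.4% (median -0.05, against 0.07). All 15 were below 0 in HAPN against HFD, against 75.1% of tested genes. In HSAPN against HAPN, 1 of the 15 was below 0, against 46.5% of tested genes (median 0.21, against 0.03).

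The cell type label of these genes could not be checked by their levels, since only genes that the table lists were taken. Scara5 was lowest, at 0.879 FPKM in HAPN replicate 3, and Pdgfra, Gsn and Cd34 were not analysed here. Genes of other cell types and tissues varied between libraries. The summed FPKM of 15 adipocyte genes ran from 66.4 to 174.7 in HSAPN, from 44.7 to 369 in HAPN, from 47.7 to 1888 in HFD and from 145 to 1182 in WT, highest in the shared HFD library. Contractile smooth muscle genes (12 in the table) summed to 450 to 748 FPKM in HSAPN, 426 to 800 FPKM in HAPN, 378 to 1257 FPKM in HFD and 1041 to 4072 FPKM in WT. Of them 11 were tested, and all 11 were below 0 in the high-fat libraries against WT (median -1.32), where 55.4% of tested genes were below 0 and their median was -0.06. In the same contrast the 4 Schwann cell genes in the table had a median of -0.93 with all 4 below 0, and summed to 2.12 to 29.8 FPKM in high-fat libraries and 10.5 to 30.6 FPKM in WT. All 3 macrophage genes were above 0 and the 3 cardiac and 2 airway genes below it, lists too short to read against that share. No list gene of these was at 0 in every library, no mesothelial gene was analysed, and 3 chondrocyte genes summed to under 1 FPKM throughout. Their part in the marker values was not tested.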

How the data were processed

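Each of the 12 samples of mouse aorta came with 1 table of mRNA-seq values by gene symbol. TRIzol RNA and a strand-keeping NEB kit were used, per the labels' protocols. Tools named without a role in the submitters' processing notes are featureCounts 1.5.0-p3 and DESeq 1.8.3, and the build named is GRCm38. The aligner, the gene annotation and the strand setting of the counting are not named in what was used here.

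The files carry no unit. The deposited values were read as FPKM made by the authors, since multiplied by the exonic length of GENCODE M21 they return whole reads in 96.1 to 97.3% of low values (up to 20 reads, tolerance 0.1). The table holds 12.0 to 17.6% of each library's reads, and how its genes were selected is not stated. Dlg2, listed more than once, was left out.

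limma 3.58.1 (R 4.3.3, trended variance) was run on log2(FPKM + 1) of every gene that reached 1 FPKM in 3 or more libraries, in 1 fit of 4 group means with 7 residual degrees of freedom, at a Benjamini-Hochberg adjusted p of 0.05. A fold change on this scale understates the change of low genes. The fit was tested on simulated data. Named besides the markers were the 6 genes most like Serpinf1 by Pearson r and, from fixed lists, PEDF partners and the most abundant members. Members and lists were chosen with earlier results of these data known. Alternatives covered filter, pseudocount, scaling, groups in the fit, replicate block and libraries left out; limma-voom was chosen after seeing the data.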

Additional observations from a re-analysis of the deposited data

Results flagged for a closer look

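Before median-ratio scaling, the shared HFD library lay far above the other high-fat libraries in 2 markers. For Dcn (76.4 FPKM) its gap to the next high-fat library was 0.705 of the range of all 8, and for Pi16 (24.4 FPKM) it was 0.612, both past the 95% critical value of Dixon's test for 8 samples. Chance flags about 1 in 20 single looks. Both ends of each of the 7 markers were searched, so a flag somewhere is likelier than that. The 8 libraries also pool the HFD, HAPN and HSAPN groups, which the test does not allow for. That library was also the highest of the 8 in the other 5 markers, without passing that value, and had the highest adipocyte gene sum (1888 FPKM). The part of that sum in the marker values was not tested. The median-ratio factor of the shared HFD library was 1.39, against 0.894 to 0.988 in the other high-fat libraries. Its values were thus high over much of the table, not only in the markers. Dixon's test was not run on scaled values.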

How the results depend on the processing

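The count of marker genes past the threshold was 0 in the 7 comparisons as reported. It stayed 0 with no filter, with at least 1 FPKM in 6 libraries, with pseudocounts of 0.1 and 5, with median-ratio scaling, with only the groups compared, with the identical files as 2 libraries and with limma-voom. Over the libraries left out in turn it ran from 0 to 3 in HAPN against WT, from 0 to 1 in HSAPN against WT and from 0 to 2 in the high-fat libraries against WT, the highest each time without WT replicate 3. Over all settings the log2 difference of Serpinf1 ran from -1.44 to -0.87 in the high-fat libraries against WT.

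Same-numbered libraries did not deviate together: over all tested genes, r of the deviations from group means ran from -0.59 to 0.50 in 15 pairs, with 4 above 0.1, so the numbers were not taken as pairs. The shared HFD library was given number 1 only, here and in the block below. Its r with WT replicate 2 (0.37), HAPN replicate 2 (0.58) and HSAPN replicate 2 (-0.17) was thus left out of these pairs. With the number as a replicate block 0 markers passed in each comparison, and Serpinf1 was at -1.09 in the high-fat libraries against WT (limma adjusted p = 0.167).

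Of marker values that missed the threshold, some changed sign. With the identical files as 2 libraries, Mfap5 was 0.024 in HFD against WT. Median-ratio scaling gave Dpt 0.053, Clec3b 0.10 and Mfap5 0.058 in HSAPN against HFD, and Scara5 -0.0064 in HSAPN against HAPN, where a pseudocount of 5 gave -0.0035. Without the shared HFD library, HAPN against HFD gave Dcn 0.0085, Pi16 0.13 and Scara5 0.21, HSAPN against HFD gave Dpt 0.018, Pi16 0.51, Scara5 0.24, Clec3b 0.035 and Mfap5 0.090, and Pnpla2 was -0.22 in the high-fat libraries against WT. In HFD against WT, leaving that library out gave Dcn -0.87, Pi16 -1.39, Scara5 -0.86 and Mfap5 -0.31. With the other libraries left out in turn, HFD against WT ran from -0.30 to 0.28 for Dcn, from -0.74 to 0.34 for Pi16, from -0.42 to 0.25 for Scara5 and from -0.17 to 0.19 for Mfap5, the highest each time without HFD replicate 3. Likewise Dpt ran from -0.083 to 0.17 in HAPN against WT, and in HSAPN against HAPN Dcn ran from -0.30 to 0.074 and Scara5 from -0.27 to 0.19. In the high-fat libraries against WT, Pnpla2 ran from -0.23 to 0.30 and Bgn from -0.085 to 0.31. The cause of these changes was not tested.

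Depth limits Scara5 most, and the number of libraries limits every comparison with HFD.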
